A study of Rattus norvegicus with 256 samples.

Results

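The genes of bile acid synthesis and transport measured here were Cyp7a1, Cyp8b1, Baat, Slc10a1, Abcb11, Slc10a2, Fabp6, Nr1h4 and Nr0b2. Every probeset that the annotation of the RAE230_2 array gives to 1 of these symbols was taken. That gave 9 probesets for 9 genes out of 31042 probesets on the array, with 1 probeset per gene and 0 shared with another gene. No filter on measured values was applied to these genes, but they were chosen with earlier results of these data known. The samples came from untreated Wistar rats of the strain AlpkHsdBrlHan:WIST, 5 males and 5 females, killed by halothane. Their age is not given in the sources used here. Each array held RNA of 1 organ of 1 animal. The arrays, 127 from males and 129 from females, covered 31 organs, of which 26 were taken from both sexes and 5 (testes, epididymis, prostate, ovary and uterus) from 1 sex only, with 2 to 5 arrays per organ and sex. Values are GCRMA signals on a log2 scale, so that a difference of 1 is 2-fold, and a probeset was counted as expressed where its group mean exceeded the expression threshold of the study's methods, a linear signal of about 100 (just under 6.7 on the log2 scale). Log2 differences are called as measured where dim arrays were not raised, and those between 2 gut segments are adjusted for sex. Where the lower group's mean lay under that threshold a fold is given only as a lower bound, with its dim arrays raised to the threshold. Levels of different probesets are not on a common scale, so each gene was compared only with itself between organs or sexes.

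Bile acids are made from cholesterol in hepatocytes, joined to taurine or glycine, secreted into bile, taken up again in the ileum and returned to the liver in portal blood. Cyp7a1 catalyses the rate-limiting first step of the classic pathway, Cyp8b1 is the sterol hydroxylase that directs synthesis towards cholic acid, and Baat joins the amino acid. Slc10a1 carries bile acids from blood into hepatocytes, Abcb11 pumps them across the canalicular membrane, Slc10a2 takes them up across the brush border of the ileum, and Fabp6 binds them in the cytosol of ileal enterocytes. Nr1h4, also called FXR, is the nuclear receptor for bile acids. Nr0b2, also called SHP, is a nuclear receptor without a DNA-binding domain, which is induced by Nr1h4 in liver and restrains Cyp7a1.

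On build GRCr8 the hepatic genes lie on several chromosomes, with Cyp7a1 at chr5:24174505-24184202, Cyp8b1 at chr8:130455622-130457592, Baat at chr5:68647166-68656137, Slc10a1 at chr6:106344319-106357944 and Abcb11 at chr3:74424620-74520646. Of the others, Slc10a2 lies at chr16:91088089-91111025, Fabp6 at chr10:28565054-28569727, Nr1h4 at chr7:25733471-25829440 and Nr0b2 at chr5:151063160-151066475.

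The sequence just before the transcript start was read for the members for which the RefSeq promoter table (build GRCr8) has an entry, which were 6 of 9. Those of 2 ileal genes, of the hepatic uptake carrier and of Nr0b2 are shown, because the organ patterns below turn on them. Each line gives the 250 bases before the start on the gene's own strand, 5′ to 3′, and capitals mark matches on either strand to the motifs named after them.
Fabp6: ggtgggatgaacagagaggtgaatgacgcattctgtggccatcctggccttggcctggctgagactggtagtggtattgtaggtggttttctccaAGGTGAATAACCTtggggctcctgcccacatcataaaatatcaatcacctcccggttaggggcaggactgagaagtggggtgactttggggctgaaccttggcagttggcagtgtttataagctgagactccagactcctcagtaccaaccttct
Slc10a2: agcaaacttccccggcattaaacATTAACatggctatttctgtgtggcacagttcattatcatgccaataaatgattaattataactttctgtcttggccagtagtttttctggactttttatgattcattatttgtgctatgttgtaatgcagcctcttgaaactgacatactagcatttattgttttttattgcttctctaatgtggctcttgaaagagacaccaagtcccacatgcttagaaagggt
Slc10a1: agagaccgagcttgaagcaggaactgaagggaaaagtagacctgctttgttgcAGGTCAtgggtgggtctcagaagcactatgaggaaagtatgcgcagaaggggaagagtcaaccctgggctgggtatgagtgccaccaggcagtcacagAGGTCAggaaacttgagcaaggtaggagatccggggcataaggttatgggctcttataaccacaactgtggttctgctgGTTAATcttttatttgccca
Nr0b2: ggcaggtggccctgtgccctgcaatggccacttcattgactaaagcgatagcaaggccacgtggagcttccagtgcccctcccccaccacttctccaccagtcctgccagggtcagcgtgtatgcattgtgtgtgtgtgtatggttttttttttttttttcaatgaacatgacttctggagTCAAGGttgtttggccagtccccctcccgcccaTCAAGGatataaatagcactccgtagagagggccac
The regions are chr10:28569728-28569977 (minus strand) for Fabp6, chr16:91087839-91088088 (plus strand) for Slc10a2, chr6:106357945-106358194 (minus strand) for Slc10a1 and chr5:151062910-151063159 (plus strand) for Nr0b2. The capitals in Fabp6 match AGGTNANTNACCT, an inverted repeat of nuclear receptor elements with 1 base between its arms, the arrangement to which Nr1h4 binds with Rxra. That match started at position -155, counted back from the last base before the start, and the pattern was found in 15 of 33469 promoter windows of the same length, or 0.0448%. The capitals in Nr0b2 match TCAAGG, the core of the element of Nr5a2, at -69 and -36, and 12.6% of windows hold it. Slc10a1 held AGGTCA, a nuclear receptor element, at -197 and -99 (14.1% of windows) and GTTAAT, an element of Hnf1 factors, at -20 (6.45% of windows). Slc10a2 held GTTAAT on the other strand at -227. The windows of Cyp8b1 and Baat held 0 matches to any of the 4 motifs. A match is a description of letters and not evidence of binding.

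The medians of the arrays lay between 3.86 and 4.45, and no 2 arrays were identical. On 4 arrays the higher of Xist and Eif2s3y was not that of the labelled sex, a rule that compares different probesets. Eif2s3y and Xist were 3.65 and 8.77 on aorta male 3 and 3.04 and 8.55 on heart male 5. They lay closer on bone marrow male 5 (6.04 and 7.10) and bone marrow female 2 (8.43 and 6.82). Sex differences of Nr0b2 in aorta and heart, and counts called for liver and kidney against the other organs, are also given without these arrays. The mean of 5 hepatocyte markers (Alb, Ttr, Serpina1, Apoh and Tat) was 13.80 to 14.16 on the liver arrays, against 4.74 to 6.02 in pancreas and 3.89 to 10.84 in adipose, where 2 arrays stood above the others. Of 5 enterocyte markers, 4 were measured (Vil1, Fabp2, Apoa4 and Anpep), and their mean was 12.17 to 13.20 in ileum, 13.39 to 13.91 in jejunum and 11.02 to 13.23 in duodenum. The gut samples also carried smooth muscle markers, at 11.31 to 13.80 over the 6 segments. Every duodenum array carried pancreas acinar markers, at 10.34 to 13.47, against 3.71 to 5.26 in jejunum and ileum. In whole tissue, fewer cells of a type and less RNA per cell cannot be told apart.

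The organ map fell into hepatic genes, ileal genes and receptors. Cyp7a1, Cyp8b1, Baat, Slc10a1 and Abcb11 had a mean above the expression threshold in the liver only. Slc10a2 exceeded it in 2 organs, Fabp6 in 5, and Nr1h4 and Nr0b2 in 7 each. Of the 9 members, 7 were called higher in liver than in the average of the other 25 somatic organs and 0 lower, where 14% of all probesets were called (limma, both sexes pooled with equal weight, by the study's criteria for sexually dimorphic expression, SDE, applied here to organs too: expression above the threshold in at least 1 group, a difference above 2-fold and a Benjamini-Hochberg adjusted p under 0.05 over all probesets). The median difference was 7.33 over the members and -0.026 over all probesets. Slc10a2 (-0.30) and Fabp6 (-1.03) were not called, since neither reached the expression threshold in liver or on average elsewhere. Both receptors were higher in liver although other organs expressed them too, with Nr1h4 at 10.12 in liver and 4.47 elsewhere (at least 7.42-fold, adjusted p = 8.69e-79) and Nr0b2 at 8.24 in liver and 4.73 elsewhere (at least 2.52-fold, adjusted p = 5.32e-35). The fit used 1 spread per probeset over all somatic organs, so these p-values do not measure the spread between livers.

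**Figure D1:**
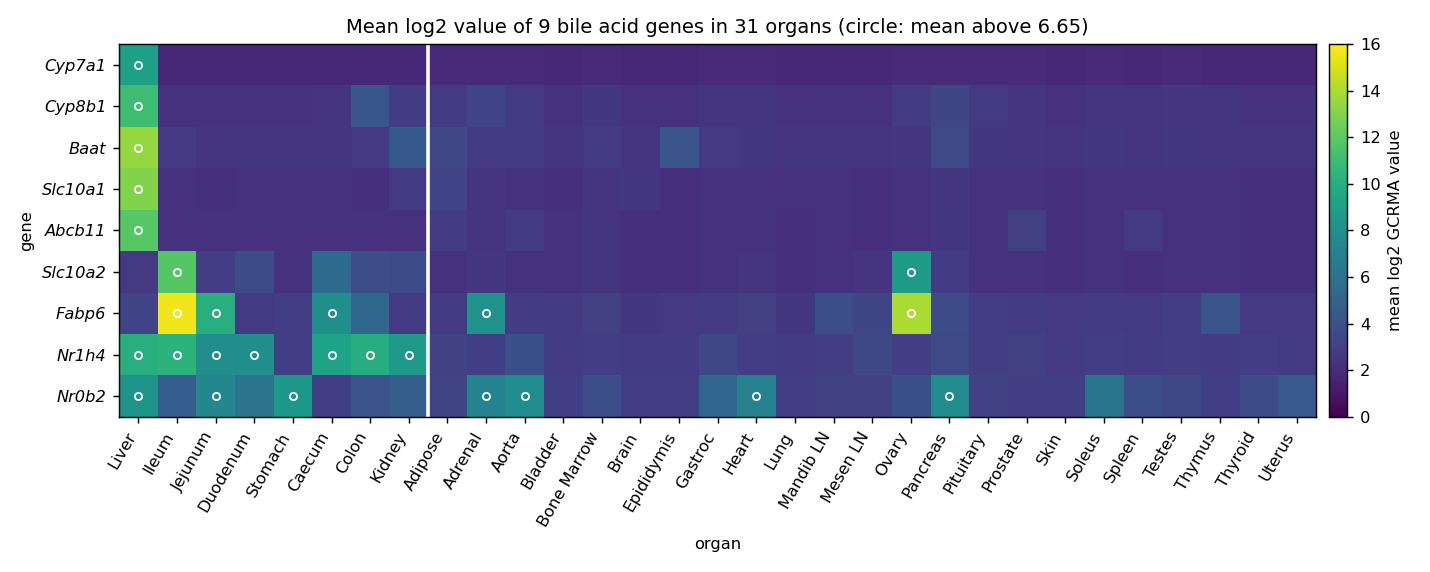
Mean log2 GCRMA value of each of the 9 genes (rows) in each of 31 organs (columns, liver, gut and kidney left of the white line, the rest in alphabetical order). White circles mark means above the expression threshold. Circles for Cyp7a1, Cyp8b1, Baat, Slc10a1 and Abcb11 stand in the liver column alone, Slc10a2 has them in ileum and ovary, and Nr1h4 and Nr0b2 have 7 each.

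Cyp7a1 was on in every liver array and at the floor elsewhere. Its values were 8.59, 10.04, 9.54 and 10.01 in males 1, 3, 4 and 5 (the order kept for all hepatic values, as a liver of male 2 was not analysed here) and 8.68, 9.90, 8.73, 6.91 and 10.13 in females. The sexes overlapped, and female 4 was the lowest. Outside the liver the highest of all arrays was 2.20. Liver exceeded the other organs at least 5.89-fold when values under the expression threshold were raised to it (log2 difference as measured 7.33 ± 0.07 SE, adjusted p = 7.84e-160 by limma). That SE and p rest on the spread over all somatic organs, nearly all at the floor, and do not measure the spread between livers. The SD of Cyp7a1 was 1.06 over 9 livers and 0.67 over the 8 without female 4, against 0.18 to 0.59 over 9 livers for the other 4 hepatic genes.

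Cyp8b1 measured 10.40, 10.77, 10.45 and 10.41 in male livers and 11.71, 11.91, 11.66, 11.09 and 11.07 in female livers. Every male lay below every female. The male-minus-female difference was -0.98 ± 0.20 (SE), 1.97-fold, with an adjusted p of 0.0494 by limma, so that it passed the p threshold and narrowly missed the 2-fold one. Liver exceeded other organs at least 20.4-fold. Its second organ was the colon, at a mean of 4.28 and with 1 array, male 5, just above the threshold at 6.66.

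Baat, the last enzyme of conjugation, measured 13.91, 13.74, 13.49 and 13.69 in male livers and 13.37, 13.13, 13.35, 13.15 and 13.19 in female livers. Again the sexes did not overlap, this time with males above. The difference was 0.47 ± 0.09 (SE), 1.39-fold, with an adjusted p of 0.0456. Liver stood at least 113-fold above the other organs. Kidney came second at a mean of 4.41 ± 1.01 (SD, n = 10), under the expression threshold on every array.

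Slc10a1 measured 13.13, 13.22, 12.83 and 13.05 in male livers and 12.94, 13.07, 12.66, 12.77 and 12.86 in female livers, and Abcb11 measured 11.66, 11.50, 11.86 and 11.68 in male livers and 11.97, 11.78, 11.76, 12.25 and 11.92 in female livers. Both transporters were steady, with overlapping sexes. The differences were 0.20 ± 0.10 (SE, adjusted p = 0.49) for Slc10a1 and -0.26 ± 0.11 (adjusted p = 0.386) for Abcb11. Against the other organs, liver was at least 79-fold higher for Slc10a1 and at least 35.7-fold higher for Abcb11.

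By the SDE criteria, 0 of 9 members differed between male and female livers, where 0.825% of all probesets did. By adjusted p alone 2 passed (Cyp8b1 and Baat) and 2.13% of all probesets did, and 3 had an unadjusted p under 0.05. Both rest on few animals. With each of the 9 arrays left out in turn, the adjusted p of Cyp8b1 ran from 0.0393 to 0.133 and was under 0.05 only without female 4 or female 5, and the difference then passed 2-fold (-1.08 in either case). That of Baat ran from 0.0288 to 0.119 and was under 0.05 only without male 4. Nr1h4 was 10.42 ± 0.34 in males (n = 4) and 9.81 ± 0.33 in females (SD, n = 5), a difference of 0.61 with an adjusted p of 0.24. Cyp7a1 differed by 0.68 ± 0.66 (SE, adjusted p = 0.734). Hepatocyte marker means were 13.85 to 14.13 in males and 13.80 to 14.16 in females, and none of the 5 genes of that list passed the test (adjusted p of 0.721 or more). The means of other marker lists did separate the sexes without overlap, at 4.31 to 4.75 in males and 4.92 to 5.82 in females for pancreas acinar markers and at 4.10 or more in males and 3.90 or less in females for proximal tubule markers. Of 5 acinar genes, 2 were called, Cela1 at 10.36 in males and 8.37 in females and Cpa1 at 2.47 in males and 10.24 in females, in opposite directions, and the defining markers Pnlip and Ctrb1 were near the floor in both sexes. Of the 4 enterocyte genes Apoa4, which liver also expresses, was called, at 13.58 in males and 12.12 in females. Lrp2 of the proximal tubule list averaged 6.48 in males and 3.28 in females, under the threshold in both. The part of these in the differences of Cyp8b1 and Baat was not tested.

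**Figure D2:**
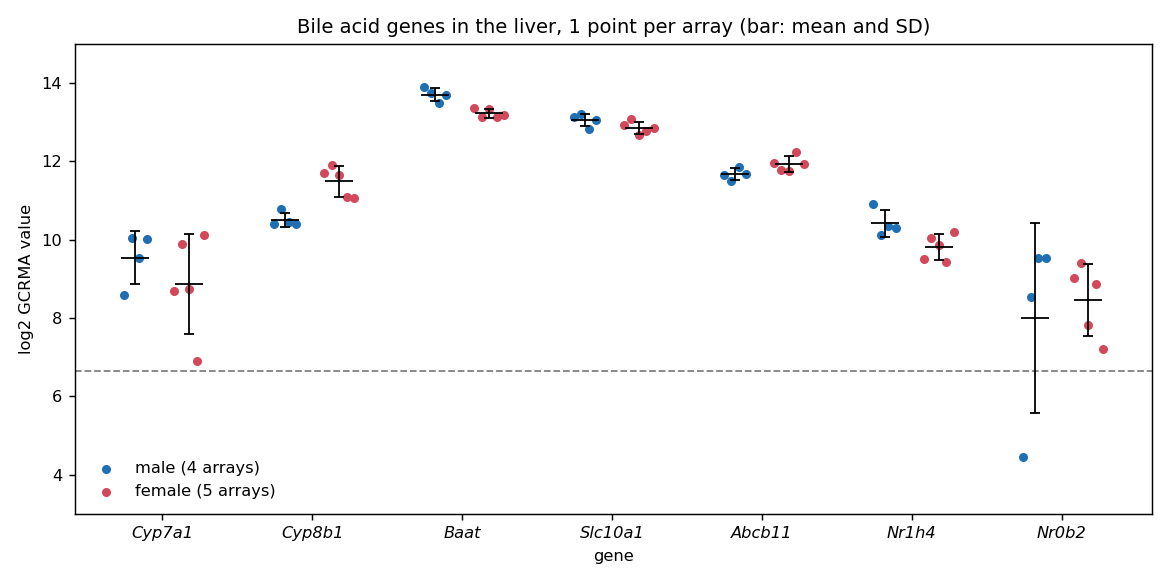
Log2 GCRMA value of the 7 genes expressed in liver, with 4 male arrays (blue, left) and 5 female arrays (red, right), a bar for the mean and SD of each sex, and a dashed line at the expression threshold. Males lay below females for Cyp8b1 and above them for Baat without overlap, and the low point of Nr0b2 is male 1 at 4.44.

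Nr0b2 in the liver ranged widely. It measured 4.44, 8.54, 9.53 and 9.53 in males and 9.02, 9.40, 7.82, 8.86 and 7.22 in females. Male 1 stood apart from the other 8 livers and lay below the expression threshold. The sex difference was -0.45 (adjusted p = 0.892) with that array and 0.74 (adjusted p = 0.677) without it. On the same array Slc10a2 was 4.71, against 2.34 to 2.73 on the other 8 livers, Nr1h4 was the highest of the livers at 10.91, and the hepatocyte marker mean was 13.85. Whether these go together was not tested.

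Slc10a2 and Fabp6 both had their highest organ mean in ileum, and Fabp6 was also expressed in jejunum and caecum. Slc10a2 had a lowest, median and highest value of 11.49, 11.70 and 12.22 in ileum (n = 10), against 2.27, 2.50 and 4.19 in jejunum (n = 9). No jejunal array reached the threshold, so ileum was at least 34.7-fold higher (log2 difference as measured 8.84 ± 0.23 SE, adjusted p = 1.26e-14 by limma). Fabp6 had 15.46, 15.62 and 15.78 in ileum, against 8.87, 10.03 and 11.99 in jejunum. Both segments expressed it and they did not overlap (5.55 ± 0.28 SE as measured, adjusted p = 1.66e-10). The ileal values of Fabp6 were close to the highest value of any probeset on any array. Differences taken from them may be too small and are not given as folds. Ileal males 2, 3 and 5 had the same value, 15.78, so comparisons within ileum carry this limit too. Nr1h4 had 9.93, 10.36 and 10.87 in ileum, against 7.41, 7.89 and 8.32 in jejunum (2.45 ± 0.11 SE, 5.47-fold, adjusted p = 3.67e-11).

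Nr0b2 went the other way. It had 3.05, 5.14 and 6.38 in ileum, against 6.14, 7.55 and 8.02 in jejunum, with a difference of -2.54 ± 0.44 as measured (SE, adjusted p = 0.000459), and jejunum was at least 1.66-fold higher. Ileal Nr0b2 lay under the threshold on all 10 arrays, while 8 of 9 jejunal arrays exceeded it. In all, 3 of 9 members were called higher and 1 lower in ileum than in jejunum, where 2.11% of all probesets were called. No array left out singly changed any of these 4 calls. Jejunal Fabp6 was tight in males (9.98, 9.96, 10.03 and 10.05) and spread in females (10.19, 9.19, 10.68, 8.87 and 11.99).

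**Figure D3:**
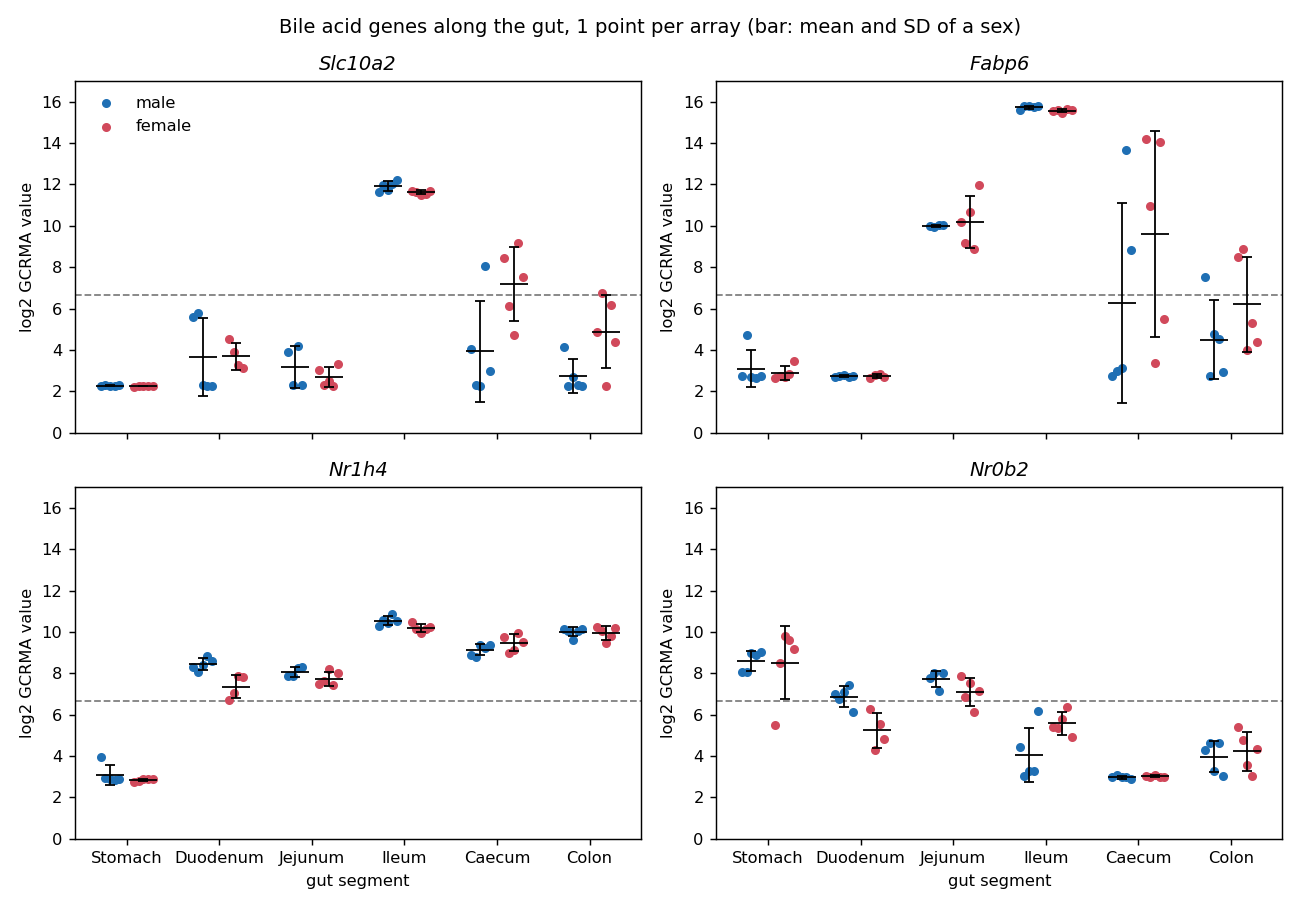
Log2 GCRMA value of Slc10a2, Fabp6, Nr1h4 and Nr0b2 in 6 gut segments from stomach to colon, 1 point per array, males (blue) left of females (red), with the mean and SD of each sex and a dashed line at the expression threshold. Slc10a2 and Fabp6 peak in ileum, Nr1h4 stays above the line from duodenum to colon, and Nr0b2 lies under it in ileum, caecum and colon. Caecal points of Slc10a2 and Fabp6 spread over most of the axis.

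Towards the stomach Fabp6 was at the floor in every duodenum array. Fabp6 lay at 2.64, 2.73 and 2.86 in duodenum (lowest, median, highest), at least 11-fold below jejunum (-7.36 ± 0.30 SE as measured, adjusted p = 3.29e-11). Nr0b2 had 4.31, 6.27 and 7.41 in duodenum, 1.36 log2 units below jejunum after adjustment for sex (SE 0.31, adjusted p = 0.00809 by limma). The plain means were 6.15 in duodenum and 7.38 in jejunum. The duodenal mean lay under the threshold, 4 of 9 duodenal arrays exceeded it, the segments overlapped, and jejunum was at least 1.46-fold higher. Nr1h4 differed by -0.0098 ± 0.19 (SE, adjusted p = 0.979 by limma) between duodenum and jejunum after adjustment for sex. These 2 of 9 members were lower in duodenum and 0 higher, where 1.87% of all probesets were called. In the stomach only Nr0b2 was expressed, at 5.52, 8.92 and 9.82, with a mean of 8.56 ± 1.22 (SD, n = 10). The liver mean was 8.26 over 9 arrays and 8.74 without male 1, the ranges overlapped, and which of these organs stood first turned on that array. By sex, gastric Nr0b2 measured 8.06, 8.04, 8.97, 8.86 and 9.01 in males and 5.52, 8.50, 9.82, 9.61 and 9.15 in females, with female 1 alone under the threshold and a mean of 8.89 without it.

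Beyond the ileum the spread between animals widened. Against caecum, ileum was called higher for 3 of 9 members and lower for 0, where 4.44% of all probesets were called. These were Slc10a2 (6.20 ± 0.77 SE, at least 21.9-fold, adjusted p = 3.94e-06), Fabp6 (7.71 ± 1.52, adjusted p = 0.000725) and Nr1h4 (1.06 ± 0.15, 2.09-fold, adjusted p = 1.5e-05). Colon against caecum gave 0 of 9 calls, where 1.78% of all probesets were called, although 3 members passed the adjusted p alone and 4 had an unadjusted p under 0.05. Nr1h4 was 9.98 in colon and 9.30 in caecum (0.67 ± 0.14 SE, adjusted p = 0.00317, under 2-fold). Fabp6 was 5.35 in colon and 7.94 in caecum (-2.59 ± 1.61, adjusted p = 0.351). Of the colon arrays, 3 of 10 exceeded the threshold for Fabp6 and 1 of 10 for Slc10a2. Colonic Fabp6 measured 7.51, 2.75, 4.76, 4.55 and 2.93 in males and 3.99 to 8.86 in females (median 5.28), so that the sexes overlapped and the arrays above the threshold were male 1, female 1 and female 2.

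In the caecum Fabp6 ranged between animals from near the floor to near the ileal level. It measured 2.76, 2.98, 3.14, 13.67 and 8.81 in males and 14.20, 10.95, 3.36, 14.04 and 5.48 in females. Slc10a2 measured 4.04, 2.30, 2.26, 8.08 and 3.00 in males and 8.44, 6.11, 4.70, 9.17 and 7.55 in females. Both were highest on male 4, female 1 and female 4, and Nr1h4 varied only between 8.80 and 9.96. The enterocyte marker mean was 10.75, 10.49 and 11.11 on those 3 arrays, against 8.35 to 9.57 on the other 7, and the goblet and crypt marker mean was 9.45 to 10.29 over all 10. The part of enterocyte content was not tested. The male-minus-female differences were -3.26 ± 1.28 (SE, adjusted p = 0.823) for Slc10a2 and -3.33 ± 2.94 (adjusted p = 1) for Fabp6, with overlapping sexes.

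**Figure D4:**
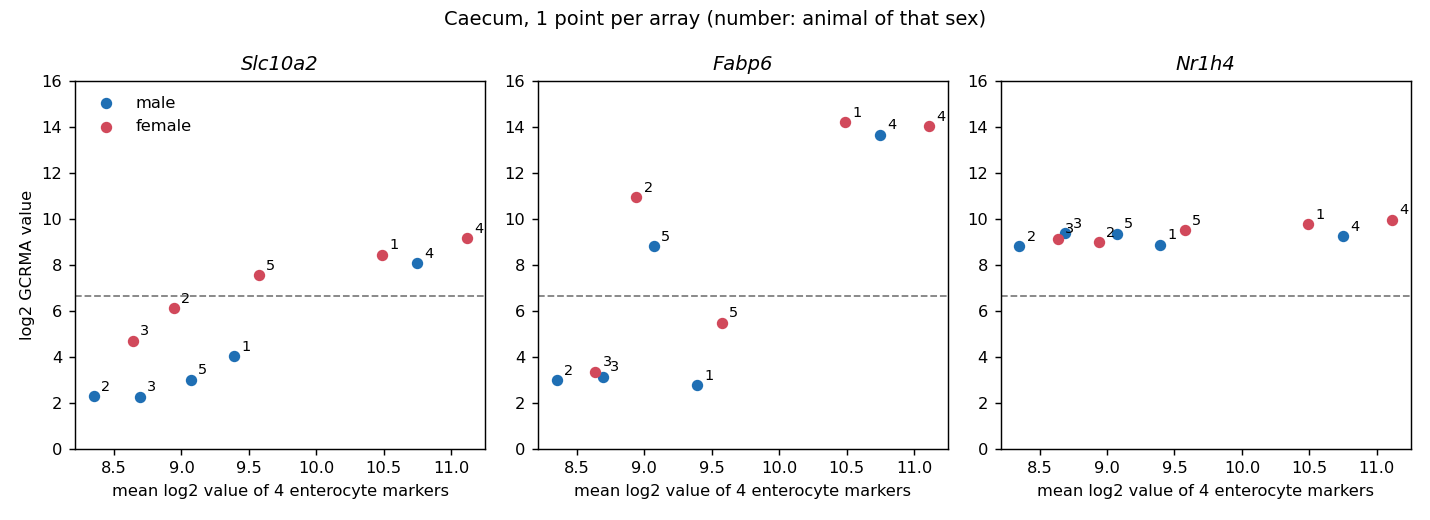
Log2 GCRMA value of Slc10a2, Fabp6 and Nr1h4 (vertical axes) against the mean log2 value of 4 enterocyte markers (horizontal axes) on the 10 caecum arrays, males blue and females red, each numbered by animal, with a dashed line at the expression threshold. Male 4, female 1 and female 4 lie to the right of the other 7 arrays and are the highest for Slc10a2 and Fabp6.

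Nr1h4 fell into expressing and silent organs with a wide gap between them. Its means in order were 10.37 in ileum, 10.08 in liver, 9.98 in colon, 9.30 in caecum, 8.67 in kidney, 7.96 in duodenum and 7.89 in jejunum, and the next organ, aorta, had 3.90. Each neighbour in that order overlapped the next except jejunum and aorta. In the kidney it measured 8.41, 8.95, 8.50, 8.75 and 8.98 in males and 8.59, 8.81, 8.57, 8.33 and 8.76 in females, with a sex difference of 0.10 ± 0.14 (SE, adjusted p = 0.758). It was the only 1 of 9 members called higher in kidney than in the other somatic organs, with 0 lower, where 10.2% of all probesets were called (4.14 ± 0.16 SE, at least 2.61-fold). The kidney samples were radial segments of the organ, and the proximal tubule marker mean was 10.80 to 12.24. Renal Slc10a2, which carries bile acids in the proximal tubule, reached 5.72 at most and was not counted as expressed.

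The ovary carried both ileal genes without Nr1h4. Slc10a2 measured 8.44, 8.33, 8.11, 9.65 and 8.90, and Fabp6 measured 14.10, 13.92, 14.26, 13.49 and 14.05. All 5 ovaries exceeded the threshold for both and lay below all 10 ilea, and Slc10a2 overlapped the range of the caecum. Nr1h4 lay between 2.89 and 2.90 on the same arrays, and the enterocyte marker mean was 4.04 to 4.52, against 12.17 to 13.20 in ileum. The adrenal expressed Fabp6 too, at 7.86 to 10.13 in males and 6.96 to 8.01 in females, while Slc10a2 was at the floor there. That sex difference of 1.23 ± 0.51 (SE) had an adjusted p of 0.206.

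A few arrays of other organs stood apart for hepatic or ileal genes. In adipose, male 5 had 8.43 for Baat, 8.09 for Slc10a1 and 5.18 for Abcb11, and its hepatocyte marker mean was 10.84, against 3.89 to 4.67 on the other 4 male arrays. Female 2 followed with a marker mean of 8.91 and 6.10 for Slc10a1. In mesenteric lymph node, male 4 had 8.37 for Fabp6 and 7.85 for Nr1h4, with an enterocyte marker mean of 8.44, against 3.39 to 3.79 on the other 7 arrays. In mandibular lymph node, female 1 had 10.43 for Fabp6 and an enterocyte marker mean of 5.22, against 3.36 to 3.89 on the other 8 arrays. Each of these arrays was thus also the highest of its organ for the marker list named beside it, other than adipose female 2, which came second. The part of neighbouring tissue in these values was not tested.

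Nr0b2 was expressed in organs outside the enterohepatic route as well. Next to stomach and liver, its means were 7.78 in pancreas, 7.76 in aorta, 7.38 in jejunum, 7.13 in adrenal and 7.00 in heart, with each neighbour overlapping the next. In the adrenal it differed by sex, at 6.42, 6.49, 6.54, 7.04 and 6.40 in males and 7.59, 7.49, 7.82, 7.70 and 7.81 in females. No male reached the lowest female, and the difference was -1.10 ± 0.13 as measured (SE, adjusted p = 0.00278). The male mean of 6.58 lay under the threshold, with 4 of 5 males under it, so that females were at least 1.94-fold higher. This was the only 1 of 9 members called in the adrenal, where 0.886% of all probesets were called.

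In the aorta Nr0b2 measured 6.54, 6.14, 8.02, 7.43 and 7.11 in males and 8.45, 8.50, 8.27, 9.03 and 8.14 in females. The sexes did not overlap, but the difference of -1.43 ± 0.34 (SE) had an adjusted p of 0.877. Male 3, the highest male, is an array whose sex genes went against its label, and without it the difference was -1.67 with an adjusted p of 0.163. In the heart Nr0b2 differed by 0.99 (adjusted p = 0.815), and by 1.01 (adjusted p = 0.854) without the array at odds with its label. Over the 18 somatic tissues other than liver, kidney and gut, 1 of 162 pairs of tissue and member was called, that of Nr0b2 in adrenal, where 0.14% of all such pairs were, and 7 had an unadjusted p under 0.05. Members were expressed in 5 of the 162 pairs.

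The duodenum was the other organ with a call. Nr1h4 measured 8.30, 8.05, 8.40, 8.84 and 8.62 in males and 6.72, 7.03, 7.89 and 7.80 in females 1, 2, 3 and 5. All males lay above all females (1.08 ± 0.28 SE, 2.12-fold, adjusted p = 0.0491). Nr0b2 measured 7.00, 6.74, 7.11, 7.41 and 6.11 in males and 6.27, 4.31, 5.56 and 4.81 in the same females. The ranges met only at male 5 and female 1, and the difference of 1.64 ± 0.42 as measured (SE) missed significance at an adjusted p of 0.0512. All 4 females were under the expression threshold, and males were at least 1.17-fold higher. Thus 1 of 9 members was called, where 2.78% of all probesets were. Leaving out any single array but female 3 took the adjusted p of Nr1h4 to between 0.0558 and 0.126, and leaving out male 5 or female 1 took that of Nr0b2 to 0.0373 or 0.0162. The methods' t-test also left Nr1h4 uncalled (adjusted p = 0.0848), while limma with trend and robust settings called Nr0b2 (adjusted p = 0.0378). The enterocyte marker mean was 12.20 to 13.23 in males and 11.02 to 12.24 in females, and of its 4 genes Apoa4 was itself called, at 2.93 higher in males. Acinar markers were at 11.52 to 13.47 in males and 10.34 to 12.94 in females. The part of cell content in this difference was not tested.

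**Figure D5:**
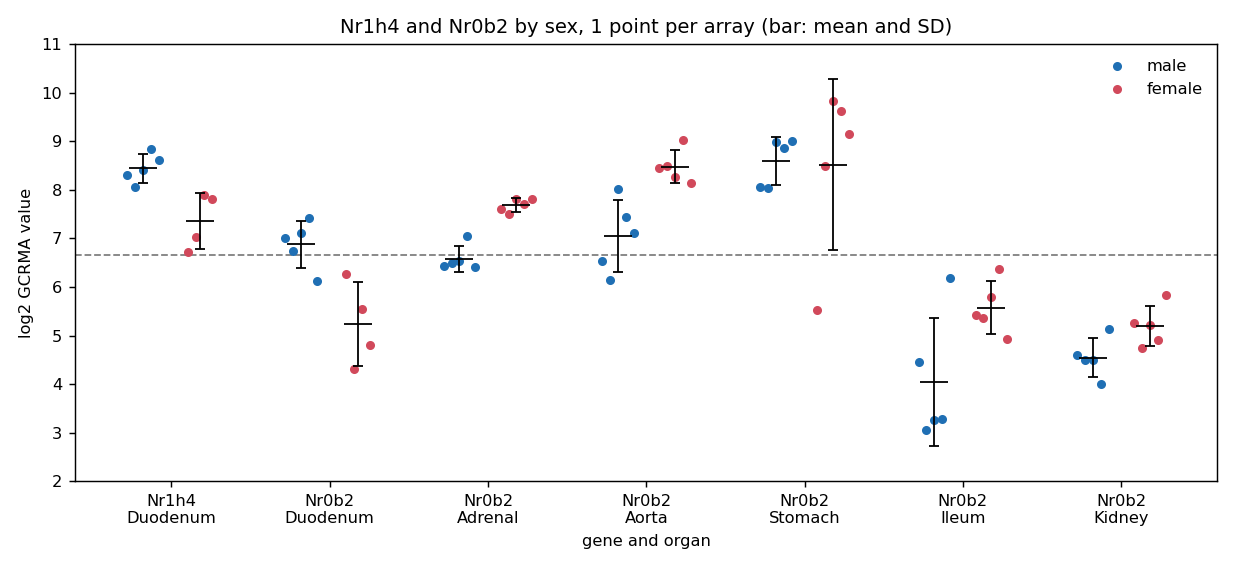
Log2 GCRMA value of Nr1h4 in duodenum and of Nr0b2 in 6 organs, 1 point per array, males (blue) left of females (red), with the mean and SD of each sex and a dashed line at the expression threshold. Males were above females for Nr1h4 in duodenum and below them for Nr0b2 in adrenal without overlap.

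No member was called between the sexes in the other gut segments or the kidney. That was 0 of 9 in stomach, jejunum, ileum, caecum, colon and kidney, where 0.0193%, 0.0419%, 0.0419%, 0.0226%, 0.0226% and 1.85% of all probesets were called in that order. At an unadjusted p under 0.05 the counts in that order were 0, 0, 4, 1, 2 and 3. In the ileum the 3 expressed members were all slightly higher in males, by 0.30 ± 0.11 (SE) for Slc10a2, 0.17 ± 0.04 for Fabp6 and 0.36 ± 0.13 for Nr1h4, with adjusted p of 0.395, 0.178 and 0.392. Ileal Fabp6 lay near the top of the scale, so its difference may be too small. Ileal Nr0b2 was 1.52 lower in males (adjusted p = 0.487 by limma) and under the threshold in both sexes.

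Whether the sex difference itself differed between organs was tested for 10 pairs among liver, kidney, duodenum, jejunum and ileum, by the interaction of sex and organ in limma. Of 90 tests on members, 7 had an adjusted p under 0.05, where 5.45% of all probesets did over the 10 pairs. Only 1 of the 7 concerned a gene expressed in both organs, out of 14 such tests. That was Nr1h4, whose sex difference was 0.98 ± 0.31 (SE) smaller in kidney than in duodenum (0.10 against 1.08, adjusted p = 0.035), and 10 of 19 arrays left out singly took it past 0.05, up to 0.0801. Cyp8b1 in liver differed from duodenum, jejunum and ileum by -0.98, -1.02 and -0.99, and Baat in liver differed from duodenum by 0.45, with the gene under the expression threshold in the gut each time. These cases restate the sex differences in liver, on the same liver arrays. The fit pools the spread of both organs, including gut arrays near the floor, so their p-values are no firmer than those of liver alone. The Baat difference missed significance with limma's trend and robust settings (adjusted p = 0.0593). Nr0b2 in duodenum differed from kidney (-2.29, kidney minus duodenum) and from ileum (3.16, duodenum minus ileum), with Nr0b2 under the expression threshold in kidney and ileum. The difference from ileum lost its call without duodenum female 2 (adjusted p = 0.0632) or ileum female 4 (adjusted p = 0.0503).

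Of 41 further genes of the pathway, 36 were measured. In the liver 24 of them were called higher and 0 lower, where 14% of all probesets were called, with a median difference of 3.76 against -0.026 over all probesets. By list these were 9 of 13 side-chain and ring enzymes, 2 of 3 of activation and conjugation, 3 of 3 hepatic uptake carriers, 3 of 5 canalicular exporters, 0 of 3 basolateral exporters and 7 of 9 receptors and regulators. Slc27a5, the bile acid ligase that precedes Baat, averaged 12.55 in liver and 2.48 in the other organs. Cyp27a1, which oxidises the side chain, averaged 12.16 in liver and 7.17 elsewhere. Slco1b2, an uptake carrier for organic anions, averaged 11.04 in liver and 2.68 elsewhere, and Abcc2, a canalicular exporter of conjugates, 11.12 in liver and 3.04 elsewhere.

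In the gut, 2 of the 36 genes were called higher and 5 lower in ileum than in jejunum, where 2.11% of all probesets were called (median -0.041, against 0.0043 over all probesets). The 2 were Slc51a, a subunit of the basolateral bile acid exporter (13.26 in ileum and 12.14 in jejunum, 1.11 ± 0.08 SE), and Abcc3, another basolateral exporter (7.94 in ileum and 6.27 in jejunum, 1.66 ± 0.17). Among the 5 were the sterol transporter subunits Abcg5 (-2.01) and Abcg8 (-2.43). Ileum against caecum gave 5 higher and 2 lower, with 4.44% of all probesets called (median 0.0073, against -0.0033 over all probesets). Duodenum against jejunum gave 0 higher and 3 lower, with 1.87% called (median -0.11, against 0.015), and colon against caecum 1 higher and 1 lower, with 1.78% called (median -0.050, against -0.011). Kidney against the other organs gave 10 higher and 1 lower, with 10.2% called (median -0.059, against -0.11). Slc51a was 3.00 ± 0.18 (SE) above caecum in ileum, and -1.40 ± 0.17 from jejunum in duodenum. The probeset for Fgf19, the symbol under which the array lists the ileal hormone that signals to the liver, reached 3.32 at most in ileum.

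Between the sexes, 5 of the 36 genes were called higher in male duodenum and 0 lower, where 2.78% of all probesets were called, with a median of 0.27 against 0.0084 over all probesets. They were Abcc2 (2.22), the vitamin D receptor Vdr (1.75), Abcc3 (1.45), Slc51a (1.42) and Akr1c14 (1.34). The duodenal marker values given above for Nr1h4 come from the same arrays, and the part of cell content in these differences was not tested. The female means of Abcc2 and Abcc3 were under the expression threshold. In kidney, with 1.85% of all probesets called, the organic anion carrier Slco1a1 averaged 11.43 in males and 2.45 in females (8.98 ± 0.18 SE as measured), and Vdr averaged 5.11 in males and 6.66 in females. In liver, with 0.825% called, Akr1d1, the reductase that sets the ring junction of bile acids, was 1.07 ± 0.20 higher in males. Stomach, jejunum, ileum, caecum and colon gave 0 calls in either direction.

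Likeness between genes was measured as Pearson's r of organ means over 31 organs, as a description over points that share animals and arrays. Nearest to Slc10a1 were Klkb1, Mbl2 and Serpina3m (0.998 to 0.999), to Abcb11 Hao1, Cpb2 and Gstp3 (0.996), and to Baat Gc, Apoh and Crp (0.98 to 0.991). Cyp7a1 was nearest to Inhbc, Masp2 and Clec4f, and Cyp8b1 to Ugt2b1, Ugt2b and Slco1b2. For Slc10a2 and Fabp6 the same 3 genes came first, Slc51a (0.756 and 0.760), Abcb1a and Nr5a2. Each neighbour stands by its probeset with the highest r. For Nr5a2, with 3 probesets, that probeset was highest in ovary at 7.48, while the probeset used in the pathway list averaged 9.07 in liver. Nr1h4 was nearest to Hnf4a, a nuclear receptor of liver, gut and kidney (0.978), and Nr0b2 had no close neighbour, with Nudt19 first at 0.687. Between members, the 5 hepatic genes had r of 0.951 to 0.994 with each other, and Slc10a2 and Fabp6 had 0.875. The 5 hepatic genes exceeded the expression threshold in liver only, so their r over organs rests mainly on that 1 organ.

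Relations between members across animals were tested for 8 pairs, after the mean of each sex was subtracted. They lay within liver or ileum, or between ileal Fabp6 and hepatic Cyp7a1, which assumes that a number is the same rat in both organs. Pearson's r ran from -0.093 to 0.569 over 9 or 10 animals, and the lowest adjusted p was 0.861 (exact permutation within sex, two-sided). None of the 8 had an unadjusted p under 0.05. A rank correlation rho was also taken, for which values were ranked over both sexes and the mean rank of each sex was then subtracted. Cyp7a1 and Nr0b2 in liver had r = 0.23 and rho = 0.055 (n = 9, exact permutation p = 0.463 and 0.895). That r was -0.23 without the 2 animals farthest from the median. Slc10a2 and Fabp6 in ileum had r = 0.569 and rho = 0.386 (n = 10, exact permutation p = 0.127 and 0.306), and r was 0.618 without the 2 farthest animals. Ileal Fabp6 was near the top of the scale and tied on some arrays, which limits both values.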

How the data were processed

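RNA of 1 organ of 1 animal was hybridised to each RAE230_2 array. Per the labels, the deposited values were made with GCRMA, which corrects for background and probe sequence, normalizes and summarizes each probeset, and the authors deposited them on the log2 scale. Which arrays were normalized together is not given in the sources used here, and the number of arrays per group limits the precision. Probesets were paired with genes through the platform annotation, and gene positions come from RefSeq (GRCr8). The 9 genes, the pathway lists and the marker lists were chosen with earlier results of these data known.

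Sexes were compared within each organ, male minus female, and organs with each other, by limma 3.58.1 (lmFit and eBayes, R 4.3.3) over all 31042 probesets with Benjamini-Hochberg adjustment. A probeset was called by the SDE criteria, which ask for expression in at least 1 of the groups compared, a change of more than 2-fold, and significance at 0.05 after adjustment. Comparisons of 2 gut segments were adjusted for sex. Liver and kidney against the other organs used 1 spread per probeset over all somatic organs. Their SE and p therefore do not measure the spread within liver or kidney. Differences in sex effect between organs were tested as an interaction and called by adjusted p alone. All 9 members are named whatever their values, with the 3 nearest genes of each by r over organ means. Where a mean lay under the expression threshold, a fold is a lower bound with dim arrays raised to that threshold. Marker values are means over the measured genes of a list.

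Animal numbers recur across organs, and a number within a sex was taken as the same rat, which the sample titles do not state. On that assumption the consensus correlation of arrays of 1 animal (statmod 1.5.0) was 0.211 for ileum and jejunum and -0.0958 for ileum and caecum. It was 0.0245 for duodenum and jejunum, -0.0384 for colon and caecum and 0.0134 over 26 organs. Relations between members used exact permutation within sex (numpy 2.4.6). The scripts were tested on simulated data. Alternatives were the methods' t-test, limma with trend and robust settings, adjustment over expressed probesets, no expression threshold, quantile normalization, a replicate block and each array left out in turn.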

Additional observations from a re-analysis of the deposited data

Results flagged for a closer look

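Groups of a member in an organ and sex were examined where at least 1 array exceeded the expression threshold. In 8 of 60 such groups, 1 array lay farther from the others than Dixon's critical value allows. A group could enter through the outlying array alone, as those of adipose and mesenteric lymph node below did. The count is therefore not set against a chance rate. In adipose, male 5 had 8.43 for Baat (other males 2.42 to 2.67) and 8.09 for Slc10a1 (2.24 to 2.33). In mesenteric lymph node, male 4 had 8.37 for Fabp6 (other males 2.59 to 2.81) and 7.85 for Nr1h4 (2.82 to 2.89). The remaining 4 gaps were small. Cyp8b1 in liver male 3 was 10.77 (other males 10.40 to 10.45), and Nr1h4 in colon male 3 was 9.61 (10.06 to 10.14). Nr0b2 in adrenal male 4 was 7.04 (6.40 to 6.54). Fabp6 in ileum male 1 was 15.62 (15.74 to 15.78), near the top of the scale.

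The male-minus-female difference differed between 2 organs, by the interaction test in limma, in 7 cases. Cyp8b1 differed by -0.98 between liver and duodenum (adjusted p = 0.00756), by -1.02 between liver and jejunum (0.0142) and by -0.99 between liver and ileum (0.0103). Baat differed by 0.45 between liver and duodenum (adjusted p = 0.013). Both genes were under the expression threshold in the gut, so these cases restate their sex differences in liver on the same liver arrays. Their p-values draw on the low spread near the floor in the gut and are no firmer than those of liver alone. Nr1h4 differed by -0.98 between kidney and duodenum (adjusted p = 0.035). Nr0b2 differed by -2.29 between kidney and duodenum (adjusted p = 0.00387) and by 3.16 between duodenum and ileum (adjusted p = 0.0254). Nr1h4 alone was expressed in both organs of its pair.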

How the results depend on the processing

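The count of members called between the sexes in duodenum was 1, and it was 0 with the methods' t-test, 2 with limma's trend and robust settings, 2 with adjustment over expressed probesets only, and 0 with the replicate block. In liver it was 0, and 1 under quantile normalization (Cyp8b1). Without the expression threshold, colon against caecum gave 2 calls in place of 0, kidney against the other organs 3 in place of 1, ileum against caecum 4 in place of 3 and liver against the other organs 8 in place of 7. With each array left out in turn, the count ran from 0 to 1 in duodenum, from 0 to 1 in liver and from 5 to 11 for the interactions (7 with every array, 11 without kidney male 1), and the other counts did not change. Between males and females of the same number, r of the deviations from the mean of each sex ran from -0.34 to 0.35 over 37 pairs. Pairs of different numbers were not examined, so these values cannot decide whether the numbers pair the sexes. The replicate block changed no other call count.

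Directions turned for few values. Nr1h4 between the sexes in colon was 0.054, and -0.023 under quantile normalization, with -0.067 to 0.15 over arrays left out. Over arrays left out, the sex difference of Fabp6 in jejunum ran from -0.51 to 0.27, that of Nr0b2 in liver from -0.96 to 0.74 and in stomach from -0.68 to 0.40, and Nr1h4 in duodenum against jejunum from -0.077 to 0.12. None of these was called. Without the 2 animals farthest from the median, r was -0.23 for hepatic Cyp7a1 and Nr0b2 (0.23 before), -0.32 for hepatic Cyp7a1 and Cyp8b1 (0.35), 0.11 for ileal Fabp6 and Nr0b2 (-0.068) and -0.78 for ileal Slc10a2 and Nr0b2 (0.26). With the sexes pooled, r was -0.13 for hepatic Cyp7a1 and Cyp8b1 and -0.30 for ileal Slc10a2 and Nr0b2. The causes were not tested. Leaving out the arrays at odds with their labelled sex, an alternative chosen after seeing the data, kept 7 calls for liver and 1 for kidney against the other organs. The levels of hepatic Cyp7a1 and of hepatic and gastric Nr0b2 without 1 array were also chosen after seeing the data. Small groups and 1 probeset per gene limit all of these values.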
